A study of Caenorhabditis elegans with 37 samples.

Results

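Basic helix-loop-helix (bHLH) transcription factors were followed through RNA-seq libraries of sorted Caenorhabditis elegans neurons. Members were chosen by name: every gene of the count table whose symbol is hlh- followed by a number, with hif-1, aha-1, lin-32, cnd-1, ngn-1 and lin-22. This rule gave 31 of the 30631 genes in the table. Cells were dissociated from untreated worms grown on NA22 bacteria, sorted by fluorescence and sequenced from total RNA as 37 libraries in 10 groups. The sorted types were ASG (4 libraries), AWA (4) and AWB (5), which are chemosensory neurons, AVE (3) and AVG (3), which are interneurons, DD (3) and VD (4), which are GABA motor neurons, and PVD (2), a sensory neuron of the body wall. References were sorted beside them, written here as pan-neuronal (5 libraries, targeted with a Rab3 marker) and all-cell (4 libraries, living cells chosen by stains alone). The labels give no strain, genotype, age or stage, and no promoter for the marker of any sorted type. Each library is named by its group and the number in its label, and no number is shared between groups.

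The bHLH domain joins a basic stretch that contacts DNA to a helix-loop-helix that pairs the protein with a partner. Members bind E-box and related sites as dimers, so that a tissue-restricted factor often works together with a broadly expressed one such as HLH-2, the worm E protein. In the nervous system the achaete-scute, atonal, neurogenin and NeuroD relatives are known for starting neuronal fates in embryonic precursors. Others act in cells of any age: HIF-1 answers low oxygen, and HLH-30, the worm TFEB, turns on autophagy and lysosome genes.

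Levels are given in CPM, a gene's count scaled to a common effective library size after TMM normalization, as mean ± SD over libraries. Total counts ran from 251586 to 5415925 per library. Differences were tested with edgeR's quasi-likelihood test in 1 fit of all 37 libraries. Calls needed a p under 0.05 after Benjamini-Hochberg adjustment over the 15181 genes that passed a filter on low counts. Marker lists for ASG, AWA, AWB and PVD had by far their highest summed level in the type they mark, the ASG list for example at 16206 ± 5081 CPM in ASG and at most 594 CPM on average in any other group. The DD and VD lists were both high in DD (7383 and 6208 CPM) and in VD (3719 and 3544 CPM). They differ only in flp-13 on the DD list and unc-55 on the VD list, so their sums could not separate the types. Against pan-neuronal libraries unc-55 was called lower in DD but not in VD, and flp-13 was called lower in VD but not in DD. The AVG list was at 1279 CPM in AVG against 1098 CPM in pan-neuronal libraries. The AVE list did not mark its type: it summed to 741 ± 226 CPM in AVE, against 1040 ± 40 CPM in pan-neuronal libraries and 1765 ± 1417 CPM in AVG. A list of 12 pan-neuronal genes summed to 21164 ± 3191 CPM in pan-neuronal and 2210 ± 1101 CPM in all-cell libraries, and to between 4396 and 15563 CPM in the sorted types. Libraries AWA 20 and AWB 51 stood apart from their groups: this list summed to 2129 and 1026 CPM in them, against 7141 to 11771 CPM in the other AWA and 7061 to 15911 CPM in the other AWB libraries. For members given by library and for named list genes, AWA and AWB values are also given without them. In sorted bulk samples, fewer cells of a type and less RNA per cell cannot be told apart.

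A handful of members made up nearly all of the bHLH signal. In each of the 37 libraries hif-1, hlh-30, hlh-11 and aha-1 together held between 94.3% and 99.9% of the CPM summed over the 31 members. The other 27 members summed to 113 ± 13.2 CPM (n = 5) in pan-neuronal libraries, with single libraries between 103 and 136 CPM. Their group means elsewhere lay between 16 CPM in PVD and 40.3 CPM in AWB, and the highest library outside the pan-neuronal group was a VD library at 65.5 CPM. Pan-neuronal libraries held counts for 22 to 27 of the 31 members each, overlapping the 18 to 24 members in VD libraries. At the depth of the shallowest library, between 12.6 and 14.6 members would be expected to keep a count in a pan-neuronal library, against 7.77 to 9.31 in all-cell libraries and 4.47 to 14 in libraries of the sorted types.

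**Figure D1:**
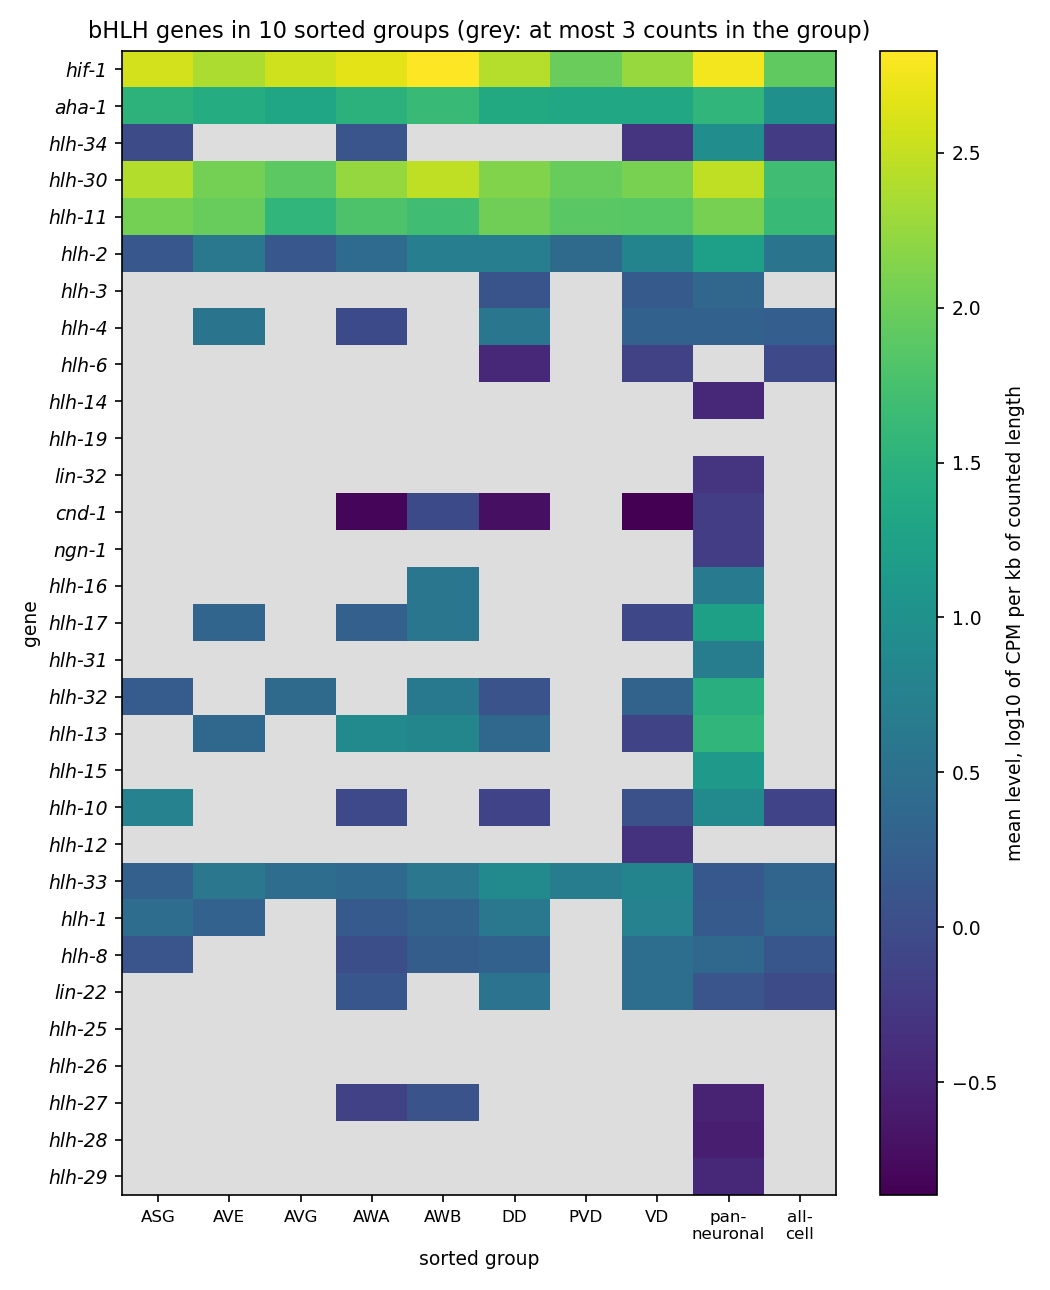
Mean level of the 31 bHLH genes in each of the 10 sorted groups, as log10 of CPM per kb of counted gene length, with genes ordered by family and grey cells marking groups with at most 3 counts in all. hif-1, hlh-30, hlh-11 and aha-1 are coloured in every group, while hlh-13, hlh-15, hlh-17, hlh-31, hlh-32 and hlh-34 have their highest mean in the pan-neuronal column.

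Of the 31 members, 12 passed the filter on low counts: hif-1, aha-1, hlh-34, hlh-30, hlh-11, hlh-2, hlh-17, hlh-32, hlh-13, hlh-10, hlh-33 and hlh-1. The filter asked for at least 2 libraries at 6.1 CPM or more before TMM scaling. hlh-34 and hlh-32 reached it in 4 and 5 pan-neuronal libraries and in 0 others, and hlh-17 in 4 pan-neuronal libraries and 1 other, so these 3 passed only because they are high in that group. hlh-33 and hlh-1 reached it in 0 pan-neuronal libraries and in 12 and 6 others. hlh-10 reached it in 1 pan-neuronal and 1 ASG library, just enough to pass. Differences of these members, hlh-10 included, from the pan-neuronal group were therefore partly set by the filter. Counts of calls describe the tested members with no weight of their own. Between pan-neuronal and all-cell libraries 10 of the 12 were higher in pan-neuronal libraries and 0 were lower. Over all tested genes 59.0% were called in this comparison and 32.2% were called higher.

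Against the pan-neuronal libraries, most called members were lower in the sorted type. ASG had 5 of the 12 lower and 0 higher, where 37.6% of all tested genes were called and 20.8% were called lower. AVE had 7 lower and 0 higher (33.6% called, 20.5% lower), and AVG 7 lower and 0 higher (31.4% called, 19.7% lower). AWA had 7 lower and 0 higher (37.8% called, 19.8% lower), and AWB 7 lower and 0 higher (43.7% called, 24.1% lower). DD had 6 lower and 1 higher (39.1% called, 20.8% lower and 18.3% higher), and PVD 8 lower and 0 higher (22.6% called, 13.8% lower). VD had 9 lower and 2 higher (56.3% called, 28.5% lower and 27.7% higher). Without PVD 62, 0 members were called in PVD. These 8 comparisons share the same 5 pan-neuronal libraries. Among the 8 types alone, 6 of the 12 differed in a test of any difference, beside 56.3% of all tested genes. None of the 12 tested members had all libraries of 1 type above or below all libraries of the other 7 types, a pattern held by 13.9% of all tested genes. No untested member had it either, but those were near the floor and could hardly show it.

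The PAS-domain factors come first, since they hold the most abundant member. hif-1 encodes the hypoxia-inducible factor, whose protein is marked for destruction by the EGL-9 and VHL-1 pathway when oxygen is plentiful. The gene (WBGene00001851) lies on the plus strand of chromosome V from 20780407 to 20785260 in the WBcel235 annotation and had counts in all 37 libraries. Pan-neuronal libraries held 2045, 1734, 1640, 1698 and 1630 CPM, and all-cell libraries 365, 227, 181 and 244 CPM. No library of either reference reached the range of the other, and hif-1 was higher in pan-neuronal libraries by 2.78 ± 0.50 on the log2 scale (± SE, edgeR adjusted p = 2.51e-05).

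Among sorted types, hif-1 had its highest means in AWB and AWA and its lowest in PVD. AWB libraries held 3037, 229, 763, 3727 and 2503 CPM, and AWA libraries 2497, 1375, 1507 and 368 CPM. Both groups spanned the pan-neuronal range, and in each the lowest value came from the library that stood apart. Neither was called against pan-neuronal libraries (edgeR adjusted p = 0.693 in AWB and 0.651 in AWA). Without AWB 51 the AWB mean was 2507 ± 1266 CPM (n = 4), and without AWA 20 the AWA mean was 1793 ± 613 CPM (n = 3). ASG held 1423, 1186, 1009 and 981 CPM, AVG 715, 1031 and 1555 CPM, and DD 832, 685 and 879 CPM. Every one of these libraries lay below all pan-neuronal libraries, yet none of the 3 differences passed the test, with adjusted p-values of 0.327, 0.326 and 0.0798. AVE held 770, 455 and 959 CPM, also without a call (log2 difference -1.26 ± 0.52, adjusted p = 0.0581). VD held 596, 555, 460 and 620 CPM, and PVD 270 and 322 CPM. Both were lower than pan-neuronal libraries, VD by a log2 difference of -1.65 ± 0.47 (adjusted p = 0.00401) and PVD by -2.57 ± 0.66 (adjusted p = 0.00511). In the order of the 10 group means, VD and PVD were the only neighbours whose libraries did not overlap. Without PVD 62 the PVD difference was -2.52 with an adjusted p of 0.103. The test of any difference among the types called hif-1 (adjusted p = 0.00268).

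The pan-neuronal marker list was low in several of the groups and libraries that were low for hif-1, among them AWA 20, AWB 51, VD and the all-cell group. Per 1000 CPM of that list, hif-1 stood at 83.2 ± 4.99 CPM in pan-neuronal and 127 ± 12 CPM in VD libraries. On this scale VD libraries, at 116 to 138 CPM, lay above pan-neuronal libraries, at 76.2 to 88.4 CPM. PVD remained below them at 28.3 and 52.5 CPM, and ASG overlapped them at 57.5 to 91.9 CPM. AWB held 214 ± 76.4 CPM, AWA 193 ± 21 CPM and all-cell libraries 121 ± 17.7 CPM per 1000 CPM of the list. Without AWB 51 and AWA 20 the first 2 values were 212 ± 87.9 and 200 ± 19.6 CPM. The part of neuronal RNA content in the hif-1 differences was not tested.

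**Figure D2:**
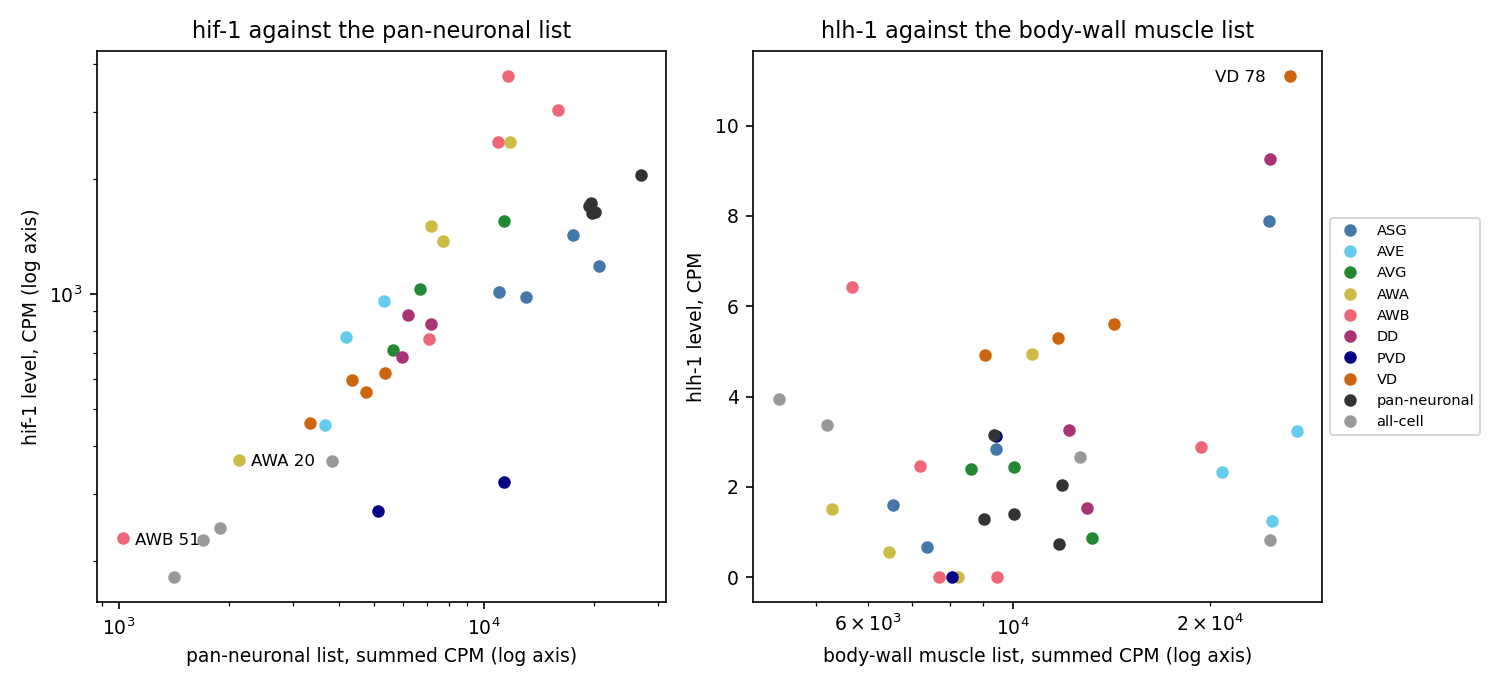
Left, hif-1 level against the summed level of 12 pan-neuronal genes, both in CPM on log axes; right, hlh-1 level in CPM against the summed level of 11 body-wall muscle genes on a log axis, 1 point per library coloured by group. AWA 20 and AWB 51 sit with the all-cell libraries at the low end of the left panel, PVD libraries lie below the other points there, and VD 78 is highest for hlh-1 in the right panel.

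aha-1 encodes the ARNT-like partner that pairs with HIF-1 and with other PAS-domain bHLH proteins. It lies on chromosome I from 10193925 to 10196997 on the minus strand and overlaps the counted gene mrpl-34, so its reads could be shared with that gene where strand was not used. Pan-neuronal libraries held 57.3, 60.9, 60.4, 59.1 and 54.7 CPM, and all-cell libraries 20, 15.1, 7.89 and 18.8 CPM. The narrow pan-neuronal range lay wholly above the all-cell range (log2 difference 1.92 ± 0.36, adjusted p = 3.86e-05). ASG held 68.3, 45.6, 53.1 and 47.4 CPM, AWA 86.7, 43.7, 54.1 and 26.5 CPM, and AWB 98.4, 33.1, 53, 87 and 68.5 CPM. Each of these 3 sensory groups spanned the pan-neuronal range. Without AWA 20 the AWA mean was 61.5 ± 22.4 CPM, and without AWB 51 the AWB mean was 76.7 ± 20.1 CPM. AVE held 65.8, 30.1 and 31.1 CPM, AVG 14.1, 34.2 and 47.9 CPM, and DD 47.8, 33.3 and 35.1 CPM. PVD held 37.5 and 34.8 CPM, and VD 31.7, 42, 27.8 and 36.6 CPM. VD was the only type called for aha-1, and narrowly: the log2 difference from pan-neuronal libraries was -0.76 ± 0.33 with an adjusted p of 0.0493. That call was lost on leaving out VD 77, VD 79, VD 81 or PanNeuronal 1, 7, 10 or 12 in turn (adjusted p 0.0587 to 0.13), and with library totals in place of TMM factors (-0.44, adjusted p = 0.154). Differences among the types were not called for aha-1 (adjusted p = 0.0859). Per 1000 CPM of the pan-neuronal list, aha-1 was at 2.81 ± 0.398 CPM in pan-neuronal libraries. VD, at 7.83 ± 0.926 CPM, and all-cell libraries, at 7.4 ± 2.36 CPM, lay above the pan-neuronal range on this scale.

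Per kilobase of counted length, hif-1 was more abundant than aha-1 in every library. The ratio of hif-1 to aha-1 was 15.8 ± 1.76 in pan-neuronal libraries and 9.13 ± 2.28 in all-cell libraries, without overlap. In VD it ranged from 6.96 to 9.91 and in PVD it was 3.8 and 4.88, all below the pan-neuronal range of 14.3 to 18.8. AVG had the highest mean ratio, 20 ± 5.99. AWB spread from 3.65 to 22.6, and from 7.6 without AWB 51.

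hlh-34 encodes another PAS-domain bHLH protein, related to the mammalian NPAS factors. It was near the detection floor outside the pan-neuronal group. Pan-neuronal libraries held between 6.83 and 10.3 CPM (mean 8.64 ± 1.45, 156 counts in all), while no other library exceeded 2.14 CPM. The summed counts gave a level 13.1 times higher than in all-cell libraries (exact binomial 95% interval 5.03 to 48.8). Against VD the count ratio was 17.9 (9.2 to 39.9), and against AWA, the type with the highest mean, it was 7.3 (3.75 to 16.3). AVG and PVD had no count for it, which against a floor of 3 counts over the group makes it at least 5.66-fold and 4.09-fold lower there. No test of hlh-34 against the pan-neuronal group is given, since that group brought it through the filter. The gene overlaps the counted gene T01D3.3.

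The regulators and targets of HIF-1 were described from a list of 12 genes, 11 of which were tested. In pan-neuronal libraries 4 were higher and 1 was lower than in all-cell libraries (median log2 difference 0.83, beside 0.00 over all tested genes). The called share of the list was 45.5%, below the 59.0% of all tested genes. egl-9, the oxygen-sensing prolyl hydroxylase, was at 617 against 62.9 CPM (log2 difference 3.29 ± 0.40, adjusted p = 1.16e-07). cysl-1, a cysteine synthase relative that inhibits EGL-9, was at 342 against 45.2 CPM (2.92 ± 0.50, adjusted p = 1.23e-05). F22B5.4, a gene known to be induced by hypoxia through HIF-1, was at 341 against 20.3 CPM (4.07 ± 0.69, adjusted p = 1.14e-05). phy-2, a collagen prolyl hydroxylase subunit, went the other way at 25.1 against 60.7 CPM (-1.27 ± 0.53, adjusted p = 0.0399).

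Sorted types differed in which of these genes stood out. AWB had the highest hif-1 mean, without a call against pan-neuronal libraries (edgeR log2 difference 0.23 ± 0.43, adjusted p = 0.693). There nhr-57, a nuclear receptor gene used as a HIF-1 reporter, was at 126 against 10.6 CPM in pan-neuronal libraries (log2 difference 3.58 ± 0.60, adjusted p = 1.51e-05). cysl-1 was also higher there, at 1339 against 342 CPM (1.97 ± 0.43, adjusted p = 4.40e-04). AWB had 3 of the 11 tested genes higher and 4 lower (63.6% called, beside 43.7% of all genes). Without AWB 51, nhr-57 was at 155 ± 95.6 CPM (adjusted p = 7.60e-07) and cysl-1 at 1650 ± 873 CPM (2.27e-07). With the same library left out, F22B5.4 and egl-9 were lower than in pan-neuronal libraries, at 101 ± 54.6 and 344 ± 142 CPM. Their adjusted p-values in the edgeR test were 9.33e-04 and 0.00858. In AWA, rhy-1, an upstream negative regulator of HIF-1, was at 204 against 31 CPM (2.72 ± 0.58, adjusted p = 2.94e-04), with 2 genes higher and 3 lower (45.5%, beside 37.8%). Without AWA 20 rhy-1 was at 252 ± 120 CPM (adjusted p = 9.73e-05). AVG showed the sulfide oxidation gene sqrd-1 at 108 against 7.71 CPM (3.81 ± 0.61, adjusted p = 1.71e-05), with 1 gene higher and 1 lower (18.2%, beside 31.4%). In VD, DD, PVD and AVE egl-9 was lower than in pan-neuronal libraries, at 98.7, 111, 109 and 106 CPM. The adjusted p-values were 1.75e-06, 4.05e-05, 7.17e-04 and 3.75e-05. VD had 1 gene of the list higher and 4 lower (45.5%, beside 56.3%), and DD 1 and 3 (36.4%, beside 39.1%). PVD had 1 and 3 (36.4%, beside 22.6%), AVE 0 and 3 (27.3%, beside 33.6%), and ASG 3 and 1 (36.4%, beside 37.6%).

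**Figure D3:**
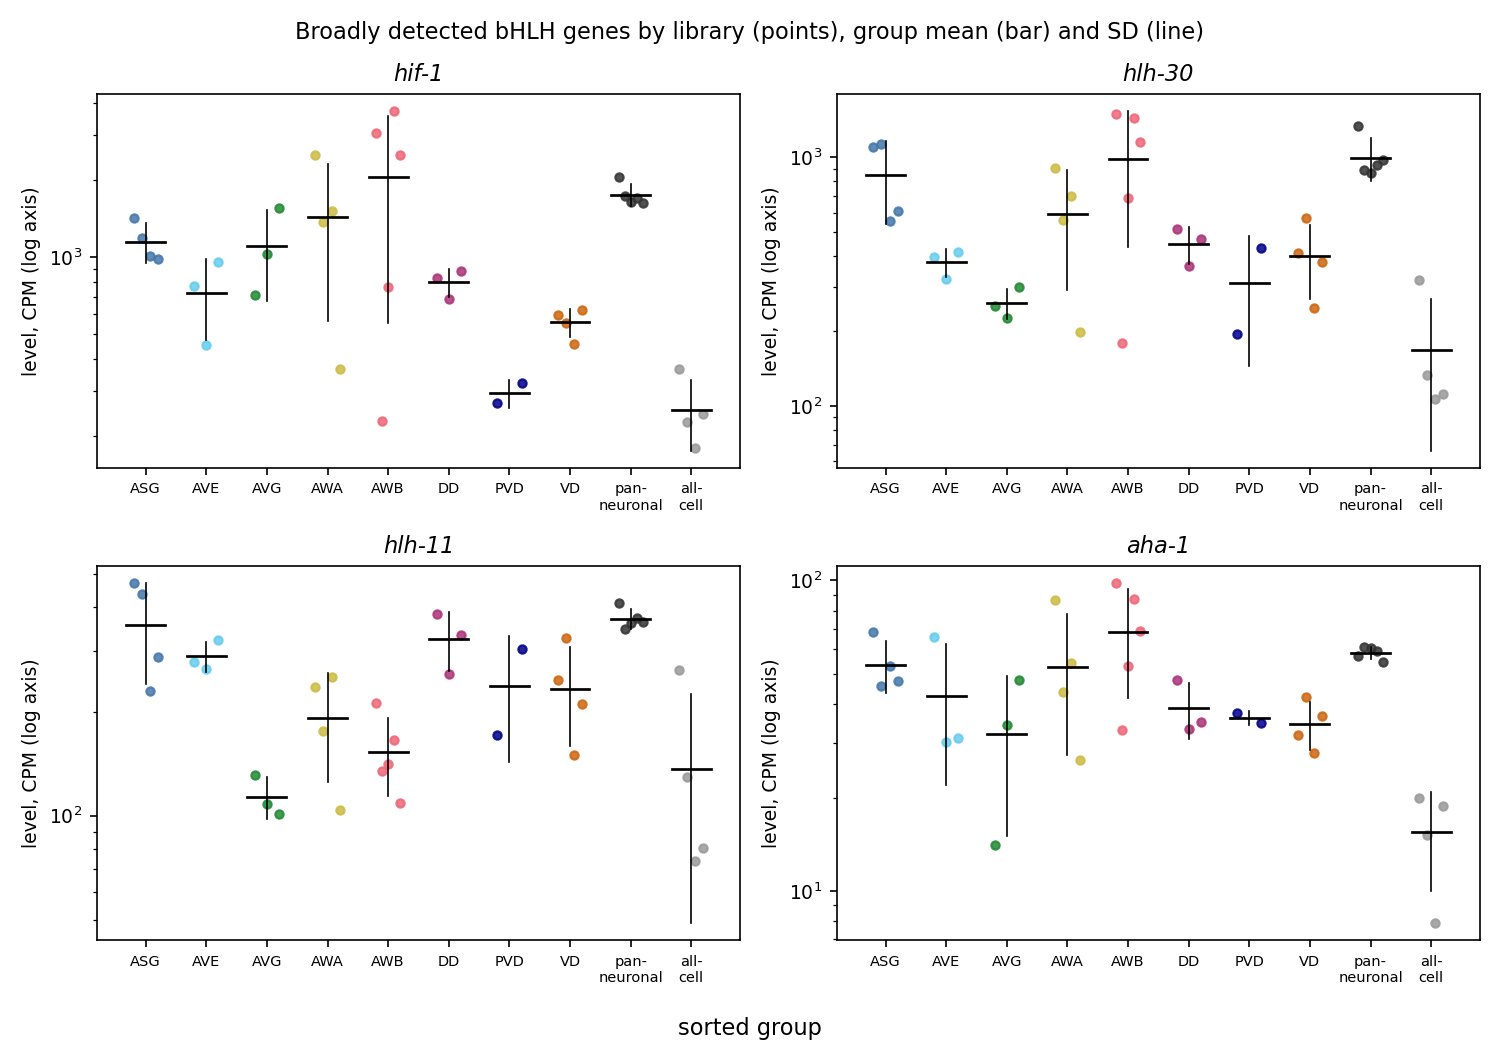
Levels of hif-1, hlh-30, hlh-11 and aha-1 in CPM on log axes, 1 point per library in each of the 10 groups, with bars at the group mean and lines for the SD. All-cell libraries have the lowest group mean for hif-1, hlh-30 and aha-1, the pan-neuronal libraries form tight clusters, and AWB and AWA are the widest groups for hif-1.

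The leucine zipper members hlh-30 and hlh-11 were the next most abundant. hlh-30 encodes the worm TFEB, a regulator of autophagy, lysosome and fat-breakdown genes. It lies on chromosome IV from 4014793 to 4034951 on the minus strand, where it overlaps 2 counted non-coding genes. Pan-neuronal libraries held 1336, 890, 862, 930 and 975 CPM, and all-cell libraries 320, 133, 107 and 112 CPM. The groups did not overlap (log2 difference 2.57 ± 0.46, adjusted p = 2.30e-05). ASG held 1105, 1133, 555 and 608 CPM, AWB 1494, 179, 685, 1436 and 1151 CPM, and AWA 909, 562, 702 and 198 CPM. These sensory neurons overlapped the pan-neuronal range and none was called. Without the library that stood apart, AWB averaged 1192 ± 370 CPM (n = 4) and AWA 724 ± 175 CPM (n = 3).

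The other types all lay below the pan-neuronal range for hlh-30. AVE held 399, 324 and 417 CPM, AVG 253, 227 and 300 CPM, and PVD 194 and 432 CPM. VD held 414, 569, 248 and 378 CPM, and DD 516, 365 and 468 CPM. The log2 difference was -1.39 ± 0.48 in AVE (adjusted p = 0.0251), -1.94 ± 0.50 in AVG (0.00331), -1.68 ± 0.58 in PVD (0.0341) and -1.31 ± 0.43 in VD (0.0109). DD was not called (-1.15 ± 0.48, adjusted p = 0.0543). The AVE call was lost without AVE 41 (-1.46, adjusted p = 0.0624), AVE 42 (-1.47, 0.0582) or PanNeuronal 1 (-1.27, 0.0529). The PVD call was lost without PVD 62 (-1.29, adjusted p = 0.392) or PanNeuronal 1 (-1.55, 0.0585), and without the low-count filter (-1.57, 0.0674). The types also differed among themselves (adjusted p = 0.0051). Per 1000 CPM of the pan-neuronal list, hlh-30 was at 47 ± 2.95 CPM (42.7 to 49.8) in pan-neuronal libraries. VD at 90 ± 22.7, AVE at 87.3 ± 8.62, DD at 69.7 ± 7.58 and all-cell at 74.2 ± 10.3 CPM all lay above that range. So did AWA, at 72.6 to 98.3 CPM, and AWB, at 93.9 to 174 CPM. ASG, at 46.5 to 62.9 CPM, and AVG, at 35.1 ± 9.29 CPM, overlapped it, and PVD, at 37.9 ± 0.275 CPM, lay below. The part of neuronal RNA content in the hlh-30 differences was not tested.

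Autophagy and lysosome genes, a class that HLH-30 is known to control, were described from a list of 24 genes, 22 of them tested. In pan-neuronal libraries 16 were higher and 1 was lower than in all-cell libraries, with a median log2 difference of 1.10. The called share was 77.3%, beside 59.0% of all tested genes. lgg-2, an Atg8 relative, was at 557 against 77.7 CPM (2.85 ± 0.42, adjusted p = 1.74e-06), and unc-51, the Atg1 kinase that also acts in axon growth, at 818 against 112 CPM (2.88 ± 0.43, adjusted p = 2.55e-06). The exception was the lipase gene lipl-5, at 7.65 against 41.8 CPM (-2.41 ± 0.89, adjusted p = 0.0206), which was named after its value was seen. In the sorted types the list was mixed. Its genes higher and lower than in pan-neuronal libraries numbered 4 and 2 in ASG (27.3% called, beside 37.6% of all genes), 0 and 6 in AVE (27.3%, beside 33.6%), and 3 and 7 in AVG (45.5%, beside 31.4%). They numbered 5 and 7 in AWA (54.5%, beside 37.8%) and 2 and 10 in AWB (54.5%, beside 43.7%). The counts were 3 and 4 in DD (31.8%, beside 39.1%), 2 and 3 in PVD (22.7%, beside 22.6%), and 4 and 9 in VD (59.1%, beside 56.3%). In AWB, where hlh-30 was close to the pan-neuronal level, bec-1, a Beclin relative, was at 33.4 against 100 CPM (-1.58 ± 0.30, adjusted p = 8.59e-05), and at 31.3 ± 10.3 CPM without AWB 51 (2.85e-05).

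hlh-11, the worm relative of AP4, followed another order. It lies on chromosome III from 9619711 to 9626529 on the plus strand, over 2 counted non-coding genes. Pan-neuronal libraries held 411, 346, 360, 372 and 362 CPM, and all-cell libraries 263, 129, 73.8 and 80.9 CPM (log2 difference 1.44 ± 0.32, adjusted p = 3.59e-04). ASG held 470, 437, 229 and 287 CPM, DD 382, 257 and 334 CPM, and AVE 279, 266 and 322 CPM. ASG and DD overlapped the pan-neuronal range, and none of the 3 was called. AVG held 131, 108 and 101 CPM, AWB 212, 135, 141, 166 and 109 CPM, and AWA 236, 176 and 252 CPM, with AWA 20 lower still. All of these libraries were below every pan-neuronal library. Without AWA 20 the AWA mean was 221 ± 40.1 CPM, and without AWB 51 the AWB mean was 157 ± 43.2 CPM. The log2 difference was -1.71 ± 0.37 in AVG (adjusted p = 6.48e-04), -1.27 ± 0.30 in AWB (9.67e-04) and -0.95 ± 0.32 in AWA (0.0179). The AWA call was lost without AWA 20 (-0.74, adjusted p = 0.0858) and without the low-count filter (-0.86, 0.0531). PVD held 171 and 304 CPM, and VD 246, 326, 150 and 210 CPM, with adjusted p-values of 0.267 and 0.0692. hlh-11 differed among the types (adjusted p = 0.00275). Per 1000 CPM of the pan-neuronal list, hlh-11 was at 17.7 ± 1.45 CPM (15.3 to 19.2) in pan-neuronal libraries. All-cell libraries, at 59.8 ± 14.9 CPM, and AWA libraries, at 20.1 to 49 CPM, lay above that range. AVG, at 8.85 to 23.2 CPM, and AWB, at 9.97 to 132 CPM, overlapped it. The remaining types also lay above it. The part of neuronal RNA content in the hlh-11 differences was not tested.

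In AWB hlh-11 was low while hlh-30 was near the pan-neuronal level (log2 difference -0.01 ± 0.40, adjusted p = 0.983). Per kilobase the ratio of hlh-30 to hlh-11 averaged 6.04 ± 3.32 in AWB, where it ranged from 1.23 in the library that stood apart to 9.82, and 7.25 ± 2.25 without that library. AWA was at 2.73 ± 0.758, or 3.05 ± 0.494 without AWA 20. The ratio was 2.5 ± 0.314 in pan-neuronal libraries, 2.21 ± 0.185 in ASG, 1.3 ± 0.0324 in DD, 1.22 ± 0.0995 in AVE and 1.18 ± 0.174 in all-cell libraries.

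**Figure D4:**
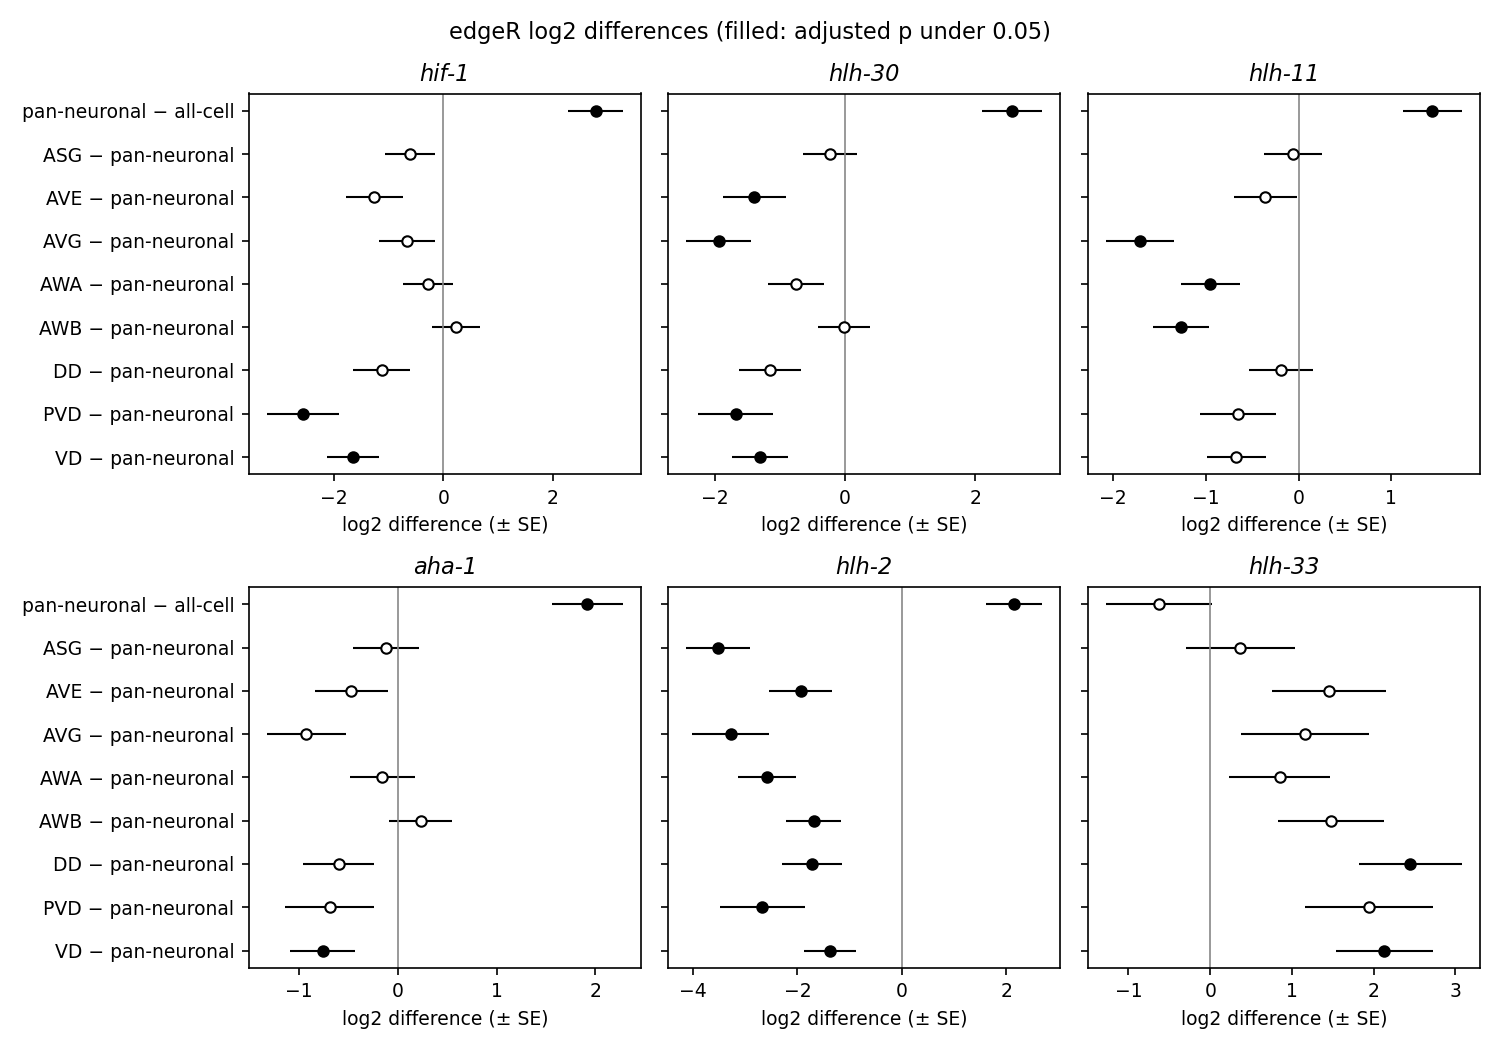
Log2 differences with standard errors from the edgeR fit for hif-1, hlh-30, hlh-11, aha-1, hlh-2 and hlh-33, 1 row per comparison and filled circles where the adjusted p was under 0.05. hlh-2 is filled on the negative side for all 8 types, hlh-11 for AVG, AWA and AWB, and hlh-33 on the positive side for DD and VD. The hlh-33 differences were partly set by the low-count filter.

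hlh-2 encodes the only worm relative of the E proteins and Daughterless, the shared partner of many tissue-restricted bHLH factors. The gene lies on chromosome I from 7190788 to 7193920 on the minus strand. Pan-neuronal libraries held 43.9, 20.2, 26.7, 25.2 and 20.8 CPM, and all-cell libraries 5.85, 5.32, 3.94 and 9.15 CPM. The references did not overlap (log2 difference 2.15 ± 0.54, adjusted p = 0.00118).

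All 8 sorted types were lower than the pan-neuronal libraries for hlh-2. ASG held 3.98, 2.4, 1.58 and 1.41 CPM, AVG 4.39, 2.44 and 0 CPM, and PVD 4.17 and 4.34 CPM. AWA held 1.52, 1.66, 9.59 and 4.95 CPM, AVE 8.63, 3.76 and 8.55 CPM, and AWB 7.38, 10.1, 7.06, 3.57 and 15 CPM. Every library of these 6 types was below every pan-neuronal library. DD held 15.7, 6.76 and 3.49 CPM, and VD 5.75, 23.4, 5.27 and 8.37 CPM, where VD 78 alone entered the pan-neuronal range. The log2 difference was largest in ASG, -3.52 ± 0.61 (adjusted p = 1.65e-05), and AVG, -3.28 ± 0.74 (0.00105), and smallest in VD, -1.38 ± 0.50 (0.0205). Without AWA 20 the AWA mean was 4.26 ± 4.62 CPM, and without AWB 51 the AWB mean was 8.25 ± 4.81 CPM.

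Some hlh-2 calls rested on single libraries. The DD call (-1.72 ± 0.58, adjusted p = 0.0185) was lost without DD 84 (-1.58, adjusted p = 0.082), DD 86 (-1.31, 0.123) or PanNeuronal 1 (-1.48, 0.0501). The VD call was lost without VD 77 (-1.17, 0.078), VD 79 (-1.15, 0.0819), VD 81 (-1.28, 0.058) or PanNeuronal 1 (-1.15, 0.0645). Both were also lost with library totals (adjusted p 0.0605 and 0.0729). The AVE call (-1.94 ± 0.61, adjusted p = 0.0143) was lost without AVE 41 (-1.84, 0.0579), and the PVD call (-2.67 ± 0.82, 0.0174) without PVD 62 (-2.72, 0.211) or PVD 63 (-2.89, 0.071). Across the types hlh-2 was called with an adjusted p of 0.0422. Per 1000 CPM of the pan-neuronal list it was at 1.27 ± 0.246 CPM in pan-neuronal and 0.149 ± 0.0538 CPM in ASG libraries, without overlap, and at 2.35 ± 1.73 CPM in VD libraries. All-cell libraries were at 3.07 ± 1.37 CPM on this scale.

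hlh-13, a relative of the mammalian PTF1A, was another member found mainly in pan-neuronal libraries. It lies on chromosome X from 4249249 to 4250766 on the plus strand. Pan-neuronal libraries held 30, 23.4, 26.3, 18.4 and 17.4 CPM, and all-cell libraries 1.67, 0.886, 0 and 0 CPM, the latter from 3 counts in all. The summed counts gave a ratio of 47.5 (95% interval 16 to 231), and hlh-13 was called higher in pan-neuronal libraries (adjusted p = 1.73e-05). AWA held 10.6, 6.63, 2.26 and 0.707 CPM, and AWB 4.92, 0, 14.1, 2.38 and 0 CPM. These were the highest levels among the types, yet all lay below every pan-neuronal library (log2 differences -2.24 ± 0.69 and -2.70 ± 0.74, adjusted p = 0.0106 and 0.00392). Without AWA 20 the AWA mean was 6.51 ± 4.2 CPM, and without AWB 51 the AWB mean was 5.36 ± 6.18 CPM.

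In the remaining types hlh-13 was close to the floor. ASG held 0, 0.8, 0.53 and 0.707 CPM, AVE 2.16, 0 and 2.33 CPM, and AVG 0, 2.44 and 0 CPM. DD held 1.43, 2.25 and 0.872 CPM, VD 0.329, 0.885, 0.329 and 0.441 CPM, and PVD 0 CPM in both libraries. Each was called lower than pan-neuronal libraries. For PVD the floor of 3 counts makes the level at least 10.9-fold lower, and without PVD 62 that call was lost (adjusted p = 0.0922). VD, the deepest group, held 8 counts in all, a ratio of 54.6 (95% interval 27.5 to 127). Among the 8 types hlh-13 differed (adjusted p = 0.00775).

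**Figure D5:**
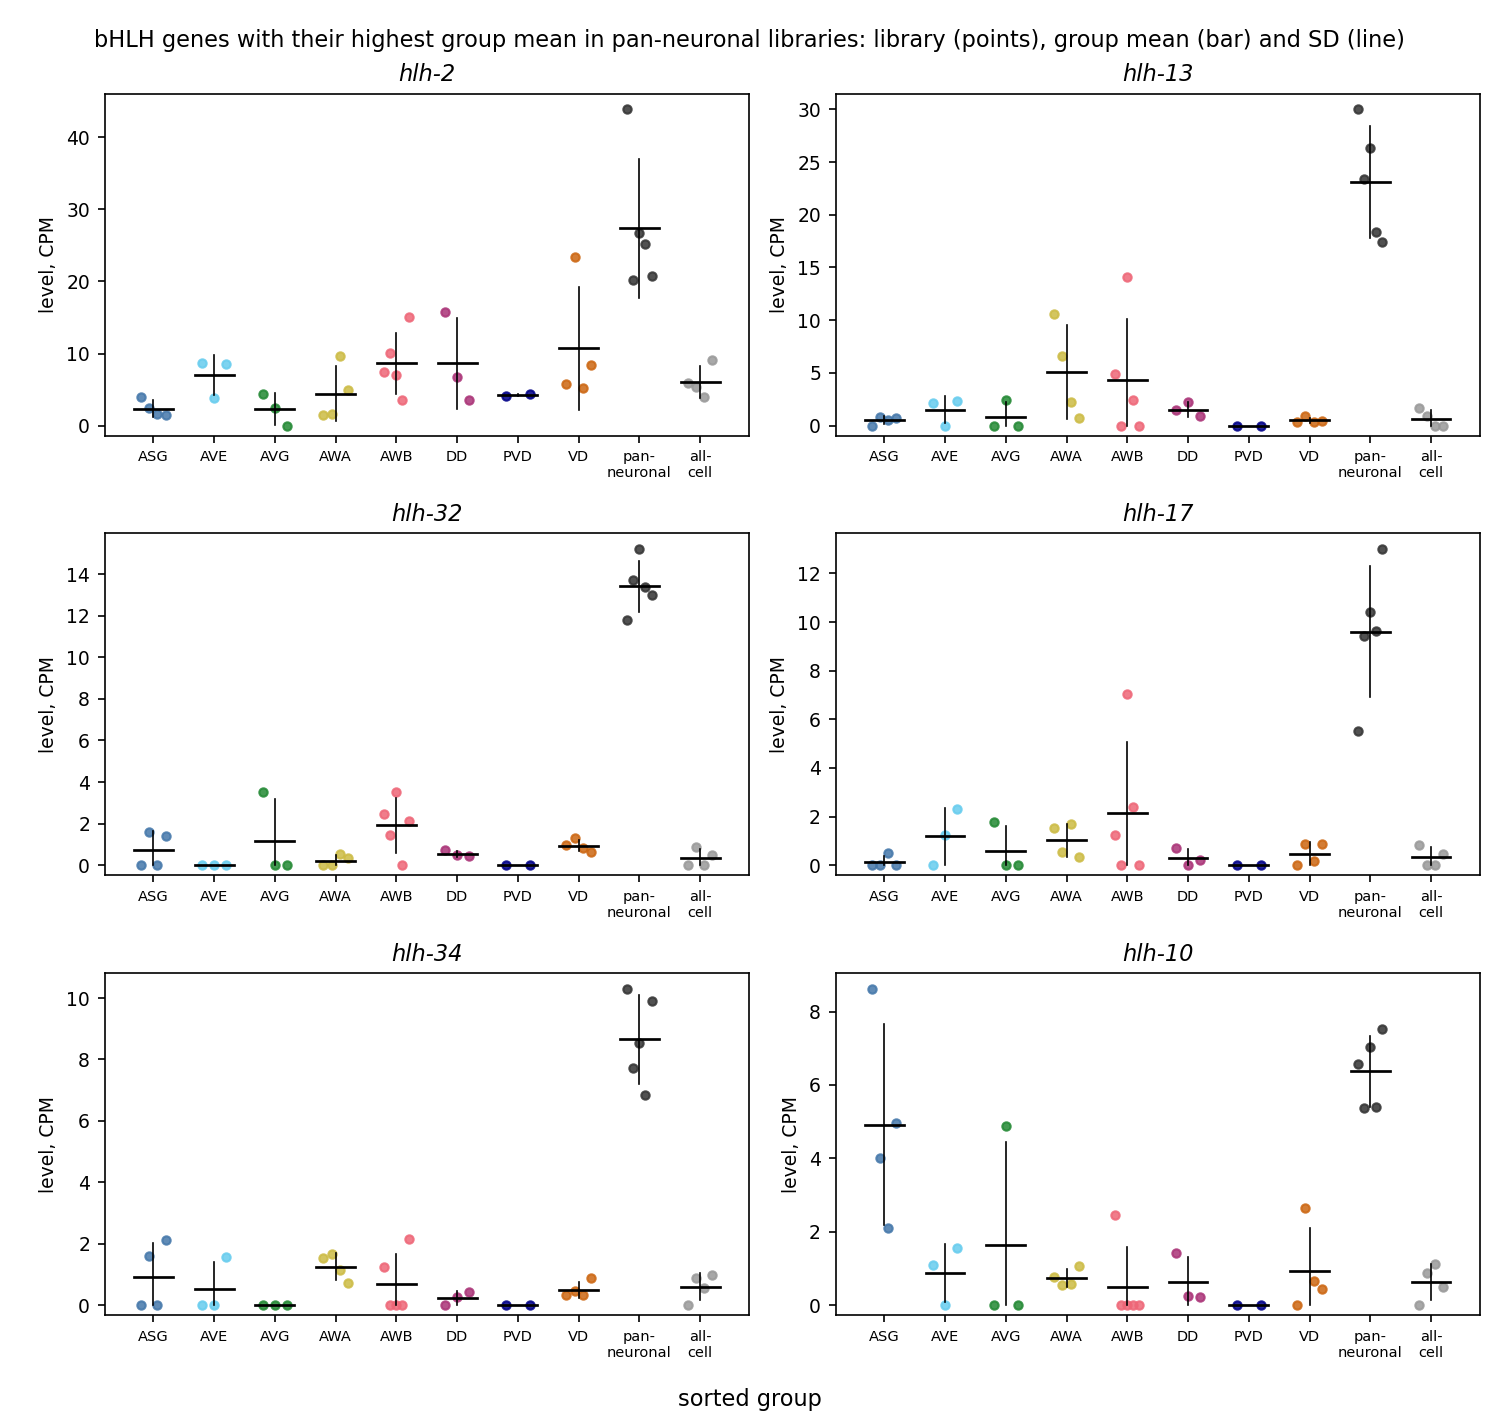
Levels of hlh-2, hlh-13, hlh-32, hlh-17, hlh-34 and hlh-10 in CPM on linear axes, 1 point per library in each of the 10 groups, with bars at the group mean and lines for the SD, which end at 0. The pan-neuronal libraries hold the highest group mean of all 6 genes, and for hlh-10 the ASG libraries, at 2.1 to 8.62 CPM, overlap them.

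The Olig relatives hlh-17, hlh-31, hlh-32 and hlh-16 shared this pattern. A reporter for hlh-17 is known from the cephalic sheath glia, and hlh-16 is known for its part in the left-right asymmetry of the AIY interneurons. hlh-17, hlh-31 and hlh-32 are near-identical copies on chromosome IV, so reads could be split among them and their sum is the safer value. The sum was 25.5 ± 3.94 CPM in pan-neuronal libraries (19.7 to 30.4 CPM, 462 counts) and 0.792 ± 0.596 CPM in all-cell libraries (5 counts). Its mean in the types ran from 0 CPM in PVD to 4.76 ± 5.3 CPM in AWB, where AWB 52, the shallowest library of the series, gave the highest single value of 14.1 CPM. No library outside the pan-neuronal group reached the pan-neuronal range. A list of glial markers summed to 33.1 ± 8.04 CPM in pan-neuronal, 65.4 ± 29.5 CPM in all-cell and 135 ± 28.7 CPM in VD libraries, and its part in the sum was not tested.

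Singly, hlh-32 averaged 13.4 ± 1.22 CPM and hlh-17 9.59 ± 2.68 CPM in pan-neuronal libraries. Their summed counts gave levels 41.2 times (95% interval 11.3 to 342) and 29 times (7.9 to 241) those of all-cell libraries. The group means of hlh-32 in the types ran from 0 to 1.91 CPM and those of hlh-17 from 0 to 2.13 CPM, both highest in AWB. For hlh-17 AWB 52, at 7.06 CPM, overlapped the pan-neuronal libraries. No test of either against the pan-neuronal group is given, since both passed the filter through that group. hlh-31 averaged 2.53 ± 1.16 CPM and hlh-16 3.28 ± 0.807 CPM in pan-neuronal libraries, and neither passed the filter on low counts. hlh-16 was at 0 counts in ASG, AVG, AWA and PVD. In AWB it held 0, 0, 3.53, 3.57 and 6.42 CPM, a level that could not be told from the pan-neuronal one by its counts (ratio 1.5, 95% interval 0.684 to 3.87), and averaged 3.38 ± 2.63 CPM without AWB 51. hlh-16 overlaps the counted gene trt-1.

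hlh-15, a relative of the mammalian NHLH factors, was found almost only in pan-neuronal libraries, with 93 of its 100 counts there. Its level was between 2.89 and 6.44 CPM in those libraries and at most 2.14 CPM in any other. Against all-cell libraries the count ratio was 15.7 (95% interval 4.21 to 131), and against VD, with 1 count, it was 96.1 (16.8 to 3837). hlh-15 did not pass the filter, and it overlaps the counted gene trpp-12.

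hlh-10 was found in pan-neuronal and in ASG libraries. Pan-neuronal libraries held 5.36 to 7.52 CPM (mean 6.38 ± 0.965), and ASG libraries 2.1, 4, 4.95 and 8.62 CPM (mean 4.92 ± 2.73). The ASG difference was not called (log2 difference -0.38 ± 0.69, adjusted p = 0.719), and its counts allow a pan-neuronal level between 0.86 and 2.03 times that of ASG. AVG was not called either (-2.37 ± 1.11, adjusted p = 0.103), on 2 counts from 1 library. The other 6 types had group means from 0 CPM in PVD to 0.938 CPM in VD. Only 1 pan-neuronal and 1 ASG library brought hlh-10 through the filter. The calls of these 6 types as lower therefore carry no weight. The AVE call (-2.65 ± 1.0, adjusted p = 0.0381) was lost without any 1 of the AVE libraries (adjusted p 0.0647 to 0.116), and the PVD call without PVD 62 (0.297) or PVD 63 (0.081). Among the 8 types hlh-10 differed (adjusted p = 0.0145), a result also partly set by the filter. With 1 of some libraries left out hlh-10 no longer passed the low-count filter, so its AWA and VD calls have no such check.

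2 members showed the opposite direction. hlh-33 held 1.31, 1.5, 1.85, 1.41 and 3.07 CPM in pan-neuronal libraries, 15.7, 7.26 and 8.06 CPM in DD, and 8.55, 11.1, 6.91 and 6.17 CPM in VD. All DD and VD libraries lay above all pan-neuronal libraries, and hlh-33 was called higher in both, by log2 differences of 2.45 ± 0.63 (adjusted p = 0.00247) and 2.13 ± 0.59 (0.00293). hlh-33 reached the filter cutoff in 0 pan-neuronal and 12 other libraries. These calls were therefore partly set by the filter and carry no weight of their own. Its mean in all-cell libraries was 2.78 ± 1.52 CPM. AVE libraries, at 4.32 to 6.27 CPM, and AWB libraries, at 3.53 to 10.1 CPM, also lay above the pan-neuronal range without a call (adjusted p = 0.11 and 0.0649). Without AWB 51, the highest of them, the AWB mean was 3.77 ± 0.347 CPM instead of 5.03 ± 2.84 CPM. PVD 62 held 12.5 CPM and PVD 63 held 0 CPM. The test of any difference among the 8 types did not call hlh-33 (adjusted p = 0.131).

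hlh-1, the worm MyoD, is a factor of body-wall muscle and marks RNA of that tissue. It was higher in VD, at 4.93, 11.1, 5.6 and 5.29 CPM, than in pan-neuronal libraries, at 3.16, 1.29, 0.741, 1.41 and 2.05 CPM (log2 difference 1.90 ± 0.68, adjusted p = 0.0184). The call was lost without VD 78 (1.57, adjusted p = 0.0613) or PanNeuronal 11 (1.5, 0.0931). hlh-1 reached the filter cutoff in 0 pan-neuronal and 6 other libraries, so the call was also partly set by the filter. In DD it was at 9.27, 3.26 and 1.53 CPM, without a call (adjusted p = 0.174), and in all-cell libraries at 2.7 ± 1.35 CPM. Of 11 body-wall muscle genes, 10 were higher in VD and 9 in DD than in pan-neuronal libraries, and 0 were lower in either, a called share of 90.9% and 81.8% beside 56.3% and 39.1% of all tested genes. The same list had 10 higher and 1 lower in AWB (100% called, beside 43.7% of all tested genes). It had 9 higher in AVE (81.8%, beside 33.6%), 9 in AVG (81.8%, beside 31.4%) and 8 in ASG (72.7%, beside 37.6%). AWA had 6 higher (54.5%, beside 37.8%) and PVD 2 (18.2%, beside 22.6%). The muscle list summed to 9056 to 26485 CPM in VD, 12190 to 24667 CPM in DD and 9019 to 11888 CPM in pan-neuronal libraries, with VD 78 and DD 83 highest in their groups. AVE had the highest sum of all groups, 24236 ± 3162 CPM, and hlh-1 was at 2.27 ± 0.992 CPM there without a call (adjusted p = 0.763). Lists of other tissues also had higher sums in VD and DD than in pan-neuronal libraries. The hypodermis list was at 3270 ± 149 and 1968 ± 522 against 460 ± 125 CPM, with 8 of 9 genes higher in each. The intestine list was at 3601 ± 625 and 2753 ± 788 against 459 ± 120 CPM, with 7 of 9 higher in each. The glial list was at 135 ± 28.7 and 120 ± 11.2 against 33.1 ± 8.04 CPM, and the pharyngeal muscle list at 1322 ± 204 and 1462 ± 741 against 240 ± 70.2 CPM. Coelomocyte genes were at 303 ± 255 CPM in VD, 38.5 ± 1.73 CPM in DD and 56.6 ± 7.07 CPM in pan-neuronal libraries. The part of RNA from other tissues in the levels of hlh-1 and hlh-33 was not tested. hlh-8, the worm Twist and another mesoderm factor, did not pass the filter, with 2.59 ± 1.18 CPM in VD and 2.16 ± 0.788 CPM in pan-neuronal libraries.

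The proneural relatives, which act mostly in embryonic precursors, stood near the floor. None of hlh-3, hlh-4, hlh-6, hlh-14, hlh-19, lin-32, cnd-1 and ngn-1 passed the filter. The highest group mean among them was 3.11 ± 3.44 CPM, for the NeuroD relative cnd-1 in AWB, from 11 counts (3.89 ± 3.42 CPM without AWB 51). cnd-1 was steadier in pan-neuronal libraries, with counts in all 5 (1.11 to 3.68 CPM, mean 2.17 ± 0.965), a level 4.6 times that of all-cell libraries (95% interval 1.47 to 23.2). hlh-3, an achaete-scute relative, also had counts in all 5 pan-neuronal libraries (0.741 to 3.76 CPM) and in all 4 VD libraries (0.823 to 1.98 CPM), but 1 count in all-cell libraries.

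hlh-4, which is known to specify the ADL sensory neuron, averaged 2.48 ± 1.38 CPM in DD, and in pan-neuronal libraries PanNeuronal 1 held 4.73 CPM while the others held at most 0.683 CPM. It overlaps 2 counted non-coding genes. hlh-6, a factor of the pharyngeal glands, had its highest mean in all-cell libraries, at 0.784 ± 0.911 CPM from 6 counts, against 2 counts in pan-neuronal libraries (ratio 8.91, 95% interval 1.59 to 90.3). Of 9 pharyngeal gland genes, 6 were lower and 2 higher in pan-neuronal than in all-cell libraries (median log2 difference -4.37, 88.9% called beside 59.0% of all genes). The gland protein gene phat-7 was at 12.1 against 440 CPM (-5.18 ± 0.70, adjusted p = 5.69e-07). lin-32, the atonal relative needed for touch and ray neurons, ngn-1, the neurogenin relative, hlh-14 and hlh-19 had between 11 and 15 counts each over all 37 libraries.

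The hairy and REF-1 relatives were the scarcest. lin-22, the hairy relative, averaged 2.15 ± 1.21 CPM in DD and 1.86 ± 0.714 CPM in VD, and at most 0.843 CPM in any other group. Of the REF-1 family, whose members answer Notch signals in the embryo, hlh-25, hlh-26, hlh-28 and hlh-29 had 3, 1, 5 and 8 counts over all libraries. hlh-27 had 25 counts in 16 libraries and overlaps the counted gene C17C3.11. hlh-12, known from the migrating distal tip cells of the gonad, had 8 counts. At these depths a low level could not be told from none.

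Notch pathway genes were described from a list of 17 with 15 tested. Their summed group means lay between 397 CPM in ASG and 1027 CPM in VD, while arg-1 or dsl-1 had no count in several groups. Between the references 5 were higher and 5 lower in pan-neuronal libraries, a called share of 66.7% beside 59.0% of all genes. glp-1, a Notch receptor of the germline, was at 7.39 against 96.3 CPM (log2 difference -3.71 ± 0.65, adjusted p = 1.96e-05), and sel-12, a presenilin, at 42 against 8.76 CPM (2.31 ± 0.47, adjusted p = 1.23e-04). A germline marker list summed to 694 ± 119 CPM in pan-neuronal and 3889 ± 1550 CPM in all-cell libraries, and its part in the glp-1 difference was not tested. In PVD 2 ligand genes were higher than in pan-neuronal libraries: apx-1 at 120 against 10.7 CPM (3.46 ± 0.68, adjusted p = 3.67e-04) and lag-2 at 56.8 against 9.77 CPM (2.51 ± 0.66, adjusted p = 0.00561). Both rest on 2 PVD libraries, and leaving out either library was not examined for them. lag-1, the DNA-binding effector of the pathway, was at 134 CPM in pan-neuronal libraries and lower in ASG, at 30.7 CPM (adjusted p = 5.51e-06), AWA, at 27 CPM (2.17e-06), AVE, at 44.4 CPM (0.00125), and AWB, at 39.4 CPM (4.08e-05), and also lower in DD, PVD and VD. Without AWA 20 and AWB 51 lag-1 was at 23.2 ± 14.1 and 36 ± 6.41 CPM in those types (adjusted p = 1.65e-06 and 2.65e-05). The genes higher and lower numbered 0 and 5 in ASG (33.3% called, beside 37.6% of all genes), 1 and 4 in AVE (33.3%, beside 33.6%), and 1 and 2 in AVG (20%, beside 31.4%). They numbered 2 and 5 in AWA (46.7%, beside 37.8%) and 2 and 6 in AWB (53.3%, beside 43.7%). The counts were 3 and 3 in DD (40%, beside 39.1%), 2 and 1 in PVD (20%, beside 22.6%), and 3 and 5 in VD (53.3%, beside 56.3%).

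Of 9 bHLH genes that the naming rule leaves out, 7 were tested, and 2 were higher and 1 lower in pan-neuronal than in all-cell libraries (42.9% called, beside 59.0% of all genes). ahr-1, the aryl hydrocarbon receptor relative that also pairs with AHA-1, was at 32.1 against 1.98 CPM (log2 difference 3.88 ± 0.53, adjusted p = 6.40e-07). In the types its mean lay between 0.521 CPM in PVD and 3.39 CPM in VD, and it was called lower than in pan-neuronal libraries in all 8 (adjusted p from 3.92e-08 in AWA to 9.18e-05 in PVD). Every mean of ahr-1 outside the pan-neuronal group lay under the 6.1 CPM of the low-count filter. The filter may therefore have partly set these differences. Without AWA 20 and AWB 51 it was at 1.12 CPM in AWA (adjusted p = 2.11e-07) and 1.45 CPM in AWB (1.08e-06). mml-1, a Mondo relative that senses sugar metabolism, was at 84.3 against 22.7 CPM (1.91 ± 0.27, adjusted p = 1.15e-06). sbp-1, the worm SREBP and a regulator of fat synthesis, was higher than the pan-neuronal level of 8.81 CPM in DD, at 39.3 CPM (2.15 ± 0.55, adjusted p = 0.00253), and VD, at 42.5 CPM (2.26 ± 0.53, 5.91e-04). The intestine and hypodermis lists were higher in the same groups, as given for hlh-1, and their part in the sbp-1 difference was not tested. cky-1, a PAS-domain member, was at 9.37 against 0.749 CPM in AWB (3.61 ± 0.71, adjusted p = 1.21e-04). Without AWB 51 it was at 5.94 ± 3.88 CPM there (adjusted p = 0.00201). It was the 1 gene lower in pan-neuronal than in all-cell libraries, at 5.62 CPM in the latter (-2.83 ± 0.71, adjusted p = 0.00106). The pan-neuronal mean of cky-1 lay far under the 6.1 CPM of the low-count filter, so other groups brought it through. Its differences from the pan-neuronal group were therefore partly set by the filter.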

How the data were processed

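The authors deposited 1 table of raw counts per gene for the 37 libraries. STAR, featureCounts and SAMtools are the tools named in the submitters' processing notes, and WS274 is the WormBase release in the table's name. No version is given in the sources used here, nor is the genome build, the use of strand or the handling of duplicates. RNA was turned into libraries with a Tecan SoLo Ovation kit, per the labels' protocols. Gene positions come from the WBcel235 annotation, matched by gene identifier.

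One edgeR 4.0.16 fit in R 4.3.3 took all 37 libraries (TMM, filterByExpr by group, common dispersion 0.226, 6.63 prior degrees of freedom). It gave 10 tests: pan-neuronal minus all-cell, each of 8 types minus pan-neuronal, and any difference among the types. Figures used matplotlib 3.10.9. Of 31 members 12 passed the filter. Calls needed an adjusted p under 0.05 over 15181 genes. Count ratios carry exact binomial 95% intervals, and floors are 3 counts over a group; both cover counting error only. The labels do not say whether a group's libraries stem from separate worm cultures. If they do not, the p-values reflect only how these samples vary, in part perhaps technically. The 54 pairs of libraries within groups all differed beyond counting noise (chi-square over degrees of freedom 2.45 to 101), so none looked like 1 library deposited again. This does not show that they are separate biological samples.

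The members and gene lists were chosen with earlier results of these data known. Members with a group mean of at least 20 CPM and a call were given by library (hif-1, aha-1, hlh-30, hlh-11, hlh-2 and hlh-13). Other members are given by range, and where single values of one are printed it was chosen after its values were seen. Up to 4 called genes per list were named by lowest p between the references and 2 in each type. Alternatives were DESeq2 1.42.0 size factors, library totals, no filter, the DESeq2 test, compared groups alone, and each library left out. None of these was examined for single list genes. Leaving out AWA 20 and AWB 51 together, for members and named list genes, was added after seeing the data. The test was also run on simulated counts with known changes and the same dispersion for every gene. That setting is simpler than these data, so the run does not bear on single calls here.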

Additional observations from a re-analysis of the deposited data

Results flagged for a closer look

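Of 36 member and group combinations examined, 5 held a library far from the others of its group, where chance gives about 1 in 20. PanNeuronal 1 was the far library in 3 of them: hif-1 was at 2045 CPM there and at 1630 to 1734 CPM in the other pan-neuronal libraries, hlh-30 at 1336 CPM against 862 to 975 CPM, and hlh-2 at 43.9 CPM against 20.2 to 26.7 CPM. The pan-neuronal marker list was also highest in that library, at 26849 CPM against 19388 to 20174 CPM. In AllCell 27 hlh-30 was at 320 CPM, against 107 to 133 CPM in the other all-cell libraries, and the pan-neuronal list was at 3836 CPM against 1415 to 1888 CPM. In VD 78 hlh-2 was at 23.4 CPM, against 5.27 to 8.37 CPM in the other VD libraries, and the body-wall muscle list was at 26485 CPM against 9056 to 14267 CPM.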

How the results depend on the processing

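For the tested members that were called, 405 of 413 log2 differences under the other settings kept their direction and call, 8 kept the direction but lost the call, and 0 reversed. With each library left out in turn, 509 of 546 kept both, 37 lost the call and 0 reversed. A further 45 of the 591 possible values, all for hlh-10, are missing because the gene then failed the low-count filter, in 9 of 9 for AWA and 9 of 9 for VD. Both tallies include members whose differences were partly set by the filter. Among them are hlh-34, hlh-17 and hlh-32, called in every comparison with the pan-neuronal group. For such members the tallies do not measure stability. Without the low-count filter ASG had 8 members called instead of 5, the added ones being hlh-15, hlh-16 and hlh-31. With the 2 compared groups fitted alone DD had 12 instead of 7, hif-1, aha-1 and hlh-30 among the added ones. With each library left out, members called ranged from 9 to 10 between the references, 5 to 5 for ASG, 4 to 7 for AVE (4 without AVE 41), 7 to 8 for AVG, 5 to 6 for AWA, 6 to 7 for AWB, 5 to 8 for DD, 0 to 7 for PVD, 8 to 10 for VD, and 4 to 8 for any difference among types. Without PVD 62 the edgeR test called 0 of 14 tested members, 6 had an unadjusted p under 0.05, and 5.86% of all tested genes were called; the lone PVD library is then assumed to vary like the other groups. Library totals in place of TMM factors moved the median log2 difference of all genes from 0.00 to -0.47 between the references, and from 0.08 to 0.41 in VD, -0.12 to 0.04 in AVE, 0.06 to 0.37 in DD, -0.10 to 0.26 in PVD, 0.21 to 0.42 in AWA and -0.06 to 0.18 in AWB. The share of calls that were higher moved from 54.5% to 42.4% between the references, 46.7% to 57.4% (DD) and 39.1% to 53.6% (PVD), and by smaller amounts from 49.3% to 58.7% (VD), 47.7% to 57.1% (AWA) and 44.9% to 53.4% (AWB). Without AWA 20 and AWB 51 members called numbered 7 in AWA, 7 in AWB and 7 among the types. No paired analysis was possible because no replicate number is shared between groups. Members under about 1 CPM rest on a few counts.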
